A study of Zea mays with 38 samples.

Results

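Leaves of maize (Zea mays) seedlings that received no UV-B were compared between 12 h and 1 h of the experiment. The members were the 8 control samples of these times, 4 at 12 h and 4 at 1 h, of 38 samples in the whole series. They were chosen by their labels, as control samples of these times, with earlier results of these data known. All plants were of the inbred line B73, and total RNA of seedling leaves was measured on 2-colour cDNA microarrays. Each slide carried 1 control sample and 1 UV-B sample of the same time, and 19 slides at 1, 2, 4, 8 and 12 h were used. At each of 1 h and 12 h, the control RNA was labelled with Cy3 on replicates a and b and with Cy5 on replicates c and d. The 1 h and 12 h samples therefore lay on different slides, and a change between the times was taken within each dye and averaged over the dyes. Plant age, the clock time of harvest and the light schedule are not given in the sources used here, nor is it said whether the 4 samples of a time came from separate plants. The p-values of this comparison thus set the change against the spread between control samples, which may be technical. That spread was pooled over the control samples of 1, 2, 4, 8 and 12 h.

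Leaf transcript levels change through the day under the joint control of light, sugars and the circadian clock. Sucrose is made in the cytosol from carbon fixed in the light, through sucrose phosphate synthase and sucrose phosphate phosphatase, and it is cleaved again by sucrose synthase and invertases. In the C4 leaf of maize, carbon is captured in mesophyll cells and passed to Rubisco in the bundle sheath, where Rubisco activase keeps the enzyme working. Proteins that enter the secretory pathway are folded in the endoplasmic reticulum by calnexin, calreticulin, BiP and protein disulfide isomerases.

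The files held 1 linear intensity per spot and channel, and between 19444 and 20116 spots were measured in a control channel of 1 h or 12 h. Raw brightness moved with time, since the median intensity of a control channel was 153000 to 338985 at 1 h and 348208 to 626914 at 12 h, with no overlap. Slide and time cannot be told apart in this comparison, and the part of brightness in the results was not tested. On 11 of the 19 slides, whole blocks of spots carried values displaced by up to several spot rows. Of 912 pairs of block and slide, 52 were displaced. Their log2 intensities correlated with the other slides at a median r of 0.241 at the same position and of 0.965 at the best offset, against 0.959 at the same position for the blocks in place. At 1 h the displaced slides were b, c and d, and at 12 h they were a, b and d. These spots were set to missing, a step added after the data had been seen and after the fit to the values as deposited had been seen. Results with the displaced blocks kept are given where they change the call or direction of a feature given by name or move its change by over 1.5 times. After normalization, control channels correlated across features at r of 0.908 to 0.963 within a time and at 0.875 to 0.943 between 1 h and 12 h. The groups were not cleanly apart by this measure. Replicate d of 1 h, the brightest channel of its time, correlated at 0.921 to 0.943 with the 12 h channels. With the other 1 h channels it correlated at 0.908 to 0.928.

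Leaf identity was checked against 7 spots of foreign or transgene sequence, the brightest of which had a mean log2 level of 16.67. Of 11 features of leaf genes (light-harvesting proteins, the Rubisco small subunit, Rubisco activase and the C4 enzyme gene pdk1), 10 lay above it. Of 5 features of seed storage protein genes (glb1, glb2 and dzs18), 2 lay above it. Of all 18399 features tested, 13659 (74.2%) lay above it, so this level does little to set leaf genes apart. None of the 5 seed features passed the test between the times, with changes from -0.76 to 0.48. The 7 foreign spots themselves changed by -0.84 to 0.67 (median -0.50, 6 lower at 12 h).

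Between 1 h and 12 h, 499 of 18399 features tested (2.71%) passed at an adjusted p under 0.05 in the limma fit, of which 329 (1.79%) were higher and 170 (0.924%) were lower at 12 h. Of the higher ones 171 rose more than 2-fold, and of the lower ones 130 fell more than 2-fold. Among the passing features, 65.9% were higher. With the authors' deposited matrix scores in place of the intensities, 624 passed and 38.9% of them were higher. The median change of all features was 0.13 on the log2 scale, and -0.0089 with the matrix scores, so changes are best read relative to that shift. With the displaced blocks kept as deposited, 342 of 19838 features passed, 334 of them shared with the 499. Leaving out 1 control channel gave between 127 passing features (without replicate c of 1 h) and 379 (without replicate d of 1 h). The count moved by more than 1.5 times without replicate b of 1 h (172), c of 1 h (127), a of 12 h (186), b of 12 h (280), c of 12 h (128) and d of 12 h (215). From 2 channels per time alone, 25 features passed in Cy3 and 7 in Cy5. The change measured in Cy3 and that in Cy5 correlated at r = 0.419 across the 18399 features, which share no channel between the dyes but are not independent replicates.

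**Figure D1:**
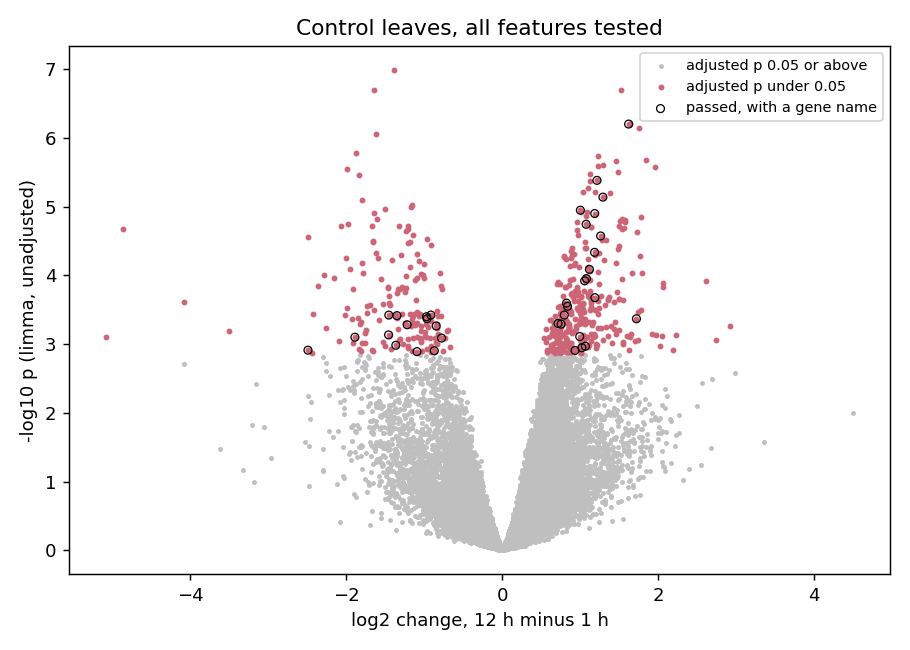
Log2 change of each of the 18399 features in control leaves (x axis, 12 h minus 1 h) against the unadjusted limma p on a -log10 scale (y axis). Red points are the 499 features with an adjusted p under 0.05, and black circles mark the 36 of them that carry a gene name; 329 of the red points lie to the right and 170 to the left.

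Only 1073 of the tested features carried an informative gene name, and 36 of them (3.36%) passed, 22 higher and 14 lower at 12 h. In 35 of the 36 the channels of 12 h did not overlap those of 1 h, in 34 of them with 4 channels at each time and in SRA with 3 at 1 h. Over all 14554 features measured on all 8 channels, 20.7% were separated in this way, and 28.3% were separated within each dye. The exception was csu503(met). The 36 had passed on these same channels, which favours such separation. The separation is therefore a description and adds no support, here or for the single genes below. Of the 22 rises, 9 passed in each of the 8 fits that left out 1 control channel, namely MNB1b, cda1, Hds1, sps1, pfk1, mha4, tif1, hir3 and Ann6. None of the 14 falls did. With the displaced blocks kept, 26 of the 36 passed, and the other 10 had adjusted p-values from 0.0513 to 0.0635 with the same log2 changes. Different features of 1 gene, and transcripts of close relatives that can bind the same cDNA, are not told apart by name, so the feature identifiers of the files are given. Counts in the gene lists below stand beside the 1.79% of all features that passed higher and the 0.924% that passed lower, and 1 passing member in a list of this size is not a result about the list.

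**Figure D2:**
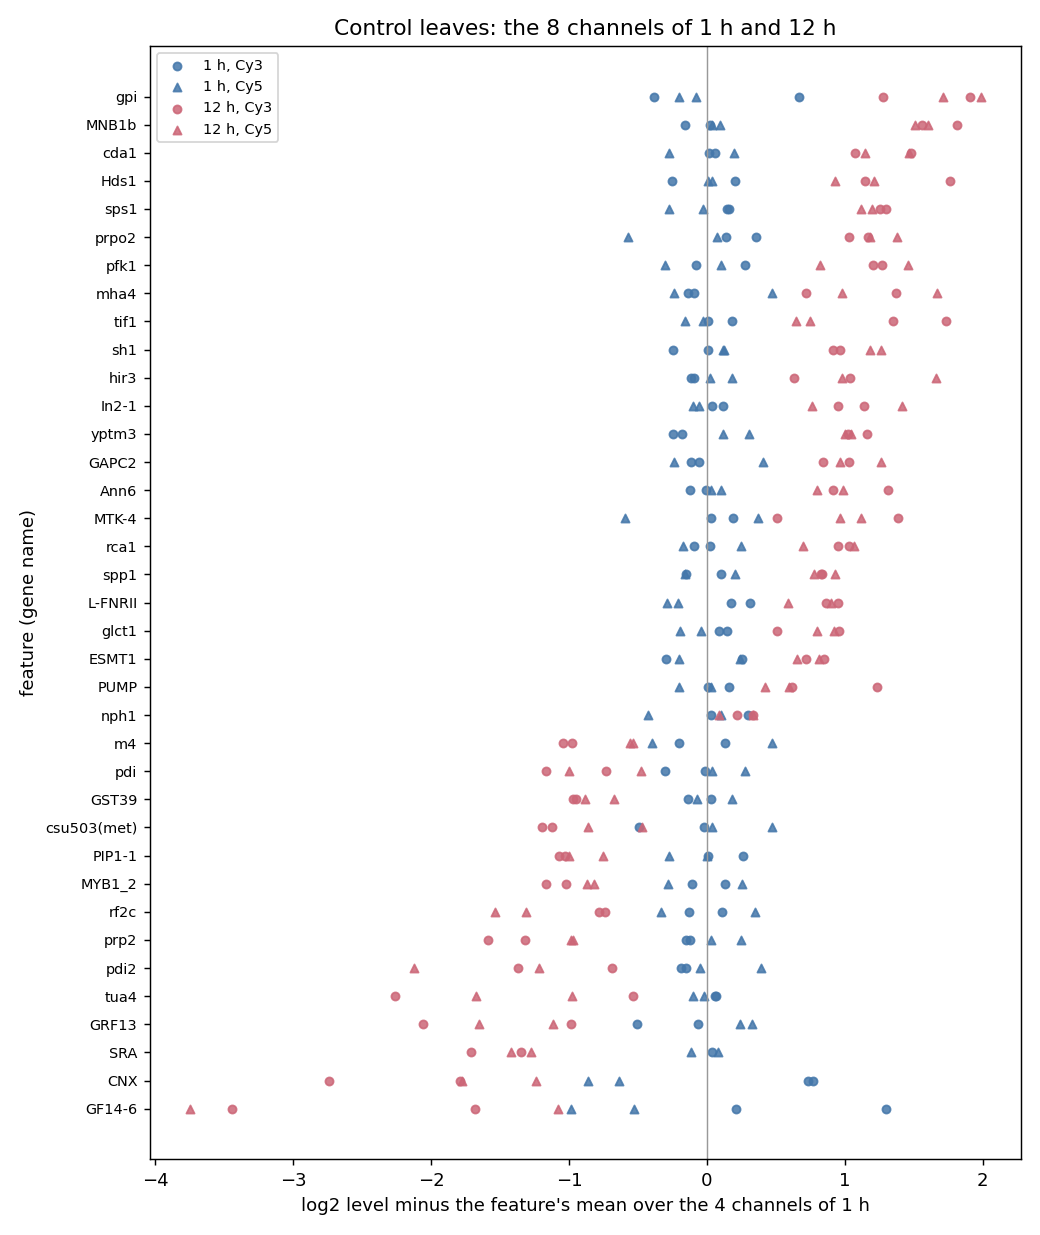
Log2 level of each of the 8 control channels minus the mean of the feature's 1 h channels (x axis), for the 36 passing features with a gene name and nph1 (y axis). Blue is 1 h and red is 12 h, circles are Cy3 and triangles Cy5; the red and blue points are apart in every feature except csu503(met) and nph1.

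Of 13 features of sucrose synthesis and cleavage tested, 3 rose and 0 fell (all features: 1.79% and 0.924%), and the list's median change was 0.36 against 0.13 for all features. The gene sps1 encodes sucrose phosphate synthase, which makes sucrose phosphate. Its log2 level (AW355886) was 20.60, 20.59, 20.42 and 20.17 in replicates a to d of 1 h and 21.70, 21.74, 21.56 and 21.64 in those of 12 h. All 4 channels of 12 h were above all 4 of 1 h, a change of 1.22 ± 0.18 (SE, n = 4 and 4, 2.33-fold, limma adjusted p = 0.00394). The gene spp1, for the phosphatase that completes the pathway, was named after its values were seen. Its levels (AW261213) were 20.68, 20.42, 20.77 and 20.41 at 1 h and 21.40, 21.40, 21.35 and 21.50 at 12 h. The 12 h channels agreed closely and all lay above 1 h, a change of 0.84 ± 0.17 (adjusted p = 0.0250). The shrunken1 gene sh1 encodes a sucrose synthase. Its levels (AI861486) were 17.89, 17.64, 18.00 and 18.01 at 1 h and 18.85, 18.80, 19.15 and 19.07 at 12 h. The groups did not overlap, and sh1 rose by 1.08 ± 0.21 (2.12-fold, adjusted p = 0.0165).

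Other features of these genes and relatives did not pass. Those of sh1 stood at 0.52 ± 0.32 (AI711818, adjusted p = 0.413, with a change of 0.06 with the displaced blocks kept) and -0.68 ± 0.73 (BQ294388, adjusted p = 0.666). The 4 features of sus1, a second sucrose synthase gene, ran from -0.37 to 0.44. The invertase gene ivr2 stood at -0.38 ± 0.24 and 0.61 ± 0.35 in its pair of features, and the sucrose transporter gene sut1 at 0.06 ± 0.22. Leaving out 1 channel kept sps1 past the threshold in all 8 fits. It ended the call of sh1 without replicate b of 1 h (adjusted p = 0.0548) and without replicate c of 12 h (adjusted p = 0.064). That of spp1 ended in 6 of the 8 fits (adjusted p up to 0.0788), all but those without a or c of 1 h.

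In glycolysis and alcohol fermentation, 3 of 26 features rose and 0 fell (all features: 1.79% and 0.924%), with a list median of 0.11, near that of all features. The gene gpi (also phi1) encodes phosphoglucose isomerase, which interconverts glucose and fructose phosphates. Its feature BE012178 was at 20.63, 19.57, 19.76 and 19.88 at 1 h and at 21.24, 21.87, 21.67 and 21.95 at 12 h. Replicate a was the highest of 1 h and the lowest of 12 h, and the groups still did not overlap (1.72 ± 0.39, 3.3-fold, adjusted p = 0.0298). A different gpi feature, BE123352, pointed the other way at -1.49 ± 0.44 (adjusted p = 0.0776), and the remaining 3 ran from 0.18 to 0.48 without passing, of which AI667860 went from 0.25 to 1.29 with the displaced blocks kept (adjusted p = 0.335). The gene pfk1, named for phosphofructokinase, had levels of 20.34, 20.70, 20.53 and 20.12 at 1 h and of 21.63, 21.70, 21.88 and 21.24 at 12 h (AW927912). It rose by 1.19 ± 0.19 (2.28-fold, adjusted p = 0.00681), with no overlap. GAPC2, for cytosolic glyceraldehyde-3-phosphate dehydrogenase, was named after its values were seen. It was at 20.88, 20.82, 20.70 and 21.34 at 1 h and at 21.77, 21.96, 21.90 and 22.20 at 12 h (BQ048285). It rose by 1.02 ± 0.25 (adjusted p = 0.0460, and 0.0609 with the displaced blocks kept). The 5 features of the enolase gene eno1 ran from -0.25 to 0.69 and those of the alcohol dehydrogenase gene adh1 from -0.46 to 0.21, and none passed. With the displaced blocks kept, the eno1 features AI674030 and AI881463 went from 0.69 to 2.61 and from 0.53 to 1.51, again without passing (adjusted p = 0.267 and 0.263). The call of pfk1 held in all 8 fits without a channel, while that of gpi ended in 6 (all but those without replicate a of either time, adjusted p up to 0.0980) and that of GAPC2 in all 8 (0.0606 to 0.155).

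In the C4 cycle and carbon fixation, 1 of 20 features rose and 0 fell (all features: 1.79% and 0.924%), with a list median of 0.04. That feature was rca1, for Rubisco activase (AW455677), at 21.10, 20.98, 21.32 and 20.90 at 1 h and 22.02, 22.11, 21.77 and 22.14 at 12 h. It rose by 0.94 ± 0.23 (1.91-fold, adjusted p = 0.0477), with no overlap. The adjusted p was 0.0633 with the displaced blocks kept and 0.0824 to 0.115 when any 1 channel was left out. The second rca1 feature, AW566413, dimmer than the brightest foreign spot, stood at -0.0033 ± 0.41. Close to the threshold were a feature of gpa1, a chloroplast glyceraldehyde-3-phosphate dehydrogenase subunit (AW400122, 0.62 ± 0.17, adjusted p = 0.0673), and TPT, the triose phosphate translocator (0.55 ± 0.17, adjusted p = 0.0942). Of the 11 features of light harvesting and electron transport none passed in the limma fit (2 at an unadjusted p under 0.05, both lower). These were lhcb5 (AW927758, -0.72 ± 0.22, adjusted p = 0.0927) and Lhcb5-2 (-0.59 ± 0.26, adjusted p = 0.238), genes of a minor light-harvesting protein of photosystem II. The only gene matched in the list of clock and light signalling was nph1, for the blue light receptor phototropin 1. Its levels were 17.38, 17.64, 16.92 and 17.45 at 1 h and 17.68, 17.57, 17.44 and 17.68 at 12 h, which overlap (0.24 ± 0.22, adjusted p = 0.603). The named features thus hold no core gene of the circadian clock, and such genes were not analysed here.

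Other rises were spread over unrelated functions. The largest of them was MNB1b, for a DNA-binding protein of the HMG1 type (AW331268), at 20.11, 19.94, 20.12 and 20.19 at 1 h and 21.91, 21.65, 21.60 and 21.70 at 12 h. Both groups were narrow and far apart, at 1.62 ± 0.20 (3.08-fold, adjusted p = 0.00222). The gene cda1 was at 19.43, 19.48, 19.62 and 19.14 at 1 h and at 20.90, 20.49, 20.88 and 20.56 at 12 h (AW461117, 1.29 ± 0.20, adjusted p = 0.00534). The gene Hds1 went from 20.44, 19.98, 20.27 and 20.24 to 22.00, 21.38, 21.45 and 21.17 (AW042551, 1.26 ± 0.22, adjusted p = 0.00804). Neither cda1 nor Hds1 overlapped between the times, while a second Hds1 feature did not pass (0.35 ± 0.29, adjusted p = 0.557).

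The gene mha4, for a plasma membrane proton ATPase, which energises uptake across the membrane, had levels of 19.56, 19.51, 19.41 and 20.12 at 1 h and of 21.02, 20.37, 21.32 and 20.63 at 12 h (AW065225). Replicate d was the highest of 1 h, and the feature rose by 1.19 ± 0.21 (adjusted p = 0.0108). The further mha4 features were at -1.72 ± 0.45 (BE129887, adjusted p = 0.0532) and 0.67 ± 0.17 (AI615212, adjusted p = 0.0550), so this gene's features disagreed in sign. In the jasmonate synthesis and defence list, which leaves out prp2 (below), 1 of 31 features rose and 0 fell (all features: 1.79% and 0.924%). It was hir3, of the family of genes induced in the hypersensitive reaction, at 20.02, 20.00, 20.14 and 20.30 at 1 h and 21.15, 20.74, 21.77 and 21.09 at 12 h (BQ134598, 1.08 ± 0.18, adjusted p = 0.00713). Among 54 features of ribosomal proteins and translation factors, 1 rose and 0 fell (all features: 1.79% and 0.924%). This was tif1, for the initiation factor eIF1, at 20.45, 20.27, 20.24 and 20.10 against 21.62 and 22.00 in Cy3 and 21.02 and 20.91 in Cy5 at 12 h (AI964625, 1.12 ± 0.21, adjusted p = 0.0141). Its change was 1.45 in Cy3 and 0.79 in Cy5. The further tif1 features stood at -0.66 ± 0.32 (AW090921, adjusted p = 0.291) and 0.29 ± 0.51 (AI600964, adjusted p = 0.823). The gene prpo2, for a protoporphyrinogen oxidase of haem and chlorophyll synthesis, rose by 1.19 ± 0.25 (AW052738, adjusted p = 0.0217), from 17.58, 17.80, 16.87 and 17.52 to 18.61, 18.47, 18.82 and 18.63. Its call ended without replicate c of 1 h (adjusted p = 0.0803) or a (0.0566), c (0.0806) or d (0.0528) of 12 h. The safener-induced gene In2-1 rose by 1.07 ± 0.27 (AW360625, adjusted p = 0.0448), from 16.79 to 17.01 at 1 h to 17.66 to 18.31 at 12 h. Its adjusted p was 0.0581 with the displaced blocks kept and 0.0636 to 0.141 when any 1 channel was left out. Its 3 other features were at -0.19 ± 0.50 (AI637105), 0.30 ± 0.30 (AW455720) and 0.79 ± 0.75 (AI974876), and none passed.

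A further 7 named features rose without being taken by the naming rule, and are named because all passing ones are given. They were yptm3, a Rab-type GTPase gene (1.06 ± 0.21, adjusted p = 0.0166), and Ann6, an annexin gene (1.00 ± 0.16, adjusted p = 0.00681). L-FNRII, for a leaf ferredoxin-NADP reductase of photosynthetic electron transport, rose by 0.83 ± 0.17 (adjusted p = 0.0239) but is not in the list of that pathway. The plastid glucose transporter gene glct1 rose by 0.80 ± 0.17 (adjusted p = 0.0281), from 19.15 to 19.49 at 1 h to 19.85 to 20.30 at 12 h. The sterol methyltransferase gene ESMT1 rose by 0.76 ± 0.17 (adjusted p = 0.0317) and PUMP, for a mitochondrial uncoupling protein, by 0.72 ± 0.16 (adjusted p = 0.0316). MTK-4 rose by 1.00 ± 0.24 (adjusted p = 0.0388, and 0.0514 with the displaced blocks kept), at a level below the brightest foreign spot. Of these 7, Ann6 passed in all 8 fits without a channel, yptm3 failed in 3 (without b or c of 1 h, or a of 12 h, adjusted p up to 0.0589), and the other 5 failed in 6 or 7.

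Protein folding genes of the endoplasmic reticulum were among the falls. In the list of chaperones and protein folding, 3 of 40 features fell and 0 rose (all features: 0.924% and 1.79%), and the list's median was -0.32 against 0.13 for all features. The gene pdi2 encodes a protein disulfide isomerase. Its feature AW927656 was at 21.36, 21.39, 21.94 and 21.49 at 1 h and at 20.17, 20.86, 19.42 and 20.33 at 12 h. It fell by 1.35 ± 0.30 with no overlap (adjusted p = 0.0283), with changes of -0.86 in Cy3 and -1.84 in Cy5. The related gene pdi (AW147172) was at 21.59, 21.30, 21.63 and 21.88 and then at 20.86, 20.43, 20.60 and 21.12. It fell by 0.85 ± 0.19 (adjusted p = 0.0329), also without overlap. The third was a calnexin feature, CNX AW257966, at 16.88, 16.85, 15.48 and 15.25 at 1 h and at 14.33, 13.37, 14.34 and 14.88 at 12 h, a change of -1.89 ± 0.45 (adjusted p = 0.0388). This feature was dimmer than the brightest foreign spot and its change was -3.02 in Cy3 and -0.76 in Cy5. Its change was -0.998 without background correction and -0.54 with the matrix scores.

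Other features of these genes and of the pathway did not pass and pointed both ways, with 15 of the list's 40 features higher and 25 lower at 12 h. The brighter CNX features were at -0.78 ± 0.43 (BQ528117, adjusted p = 0.338) and -0.62 ± 0.24 (AI737911, adjusted p = 0.182). A second pdi2 feature stood at -0.80 ± 0.24 (AW352520, adjusted p = 0.0831) and a calreticulin feature, crt2 BQ635829, at -0.82 ± 0.23 (adjusted p = 0.0684), while another crt2 feature was at 0.11 ± 0.19 (AI855285, and -0.23 with the displaced blocks kept). The 3 other pdi features stood at -0.61 ± 0.41 (AW066839), 0.36 ± 0.98 (AI665069) and 0.60 ± 0.85 (BQ620978), and the remaining pdi2 feature at -0.25 ± 0.51 (AW065896). Heat shock protein genes pointed both ways, with hsp101 at -1.26 ± 0.38 (adjusted p = 0.0812) and hsp70-5 at 0.72 ± 0.33 (adjusted p = 0.246). Each of the 3 calls ended in 6 or 7 of the 8 fits without a channel (pdi2 up to 0.106, pdi up to 0.110, CNX up to 0.114). The CNX call also ended with the displaced blocks kept (adjusted p = 0.0513).

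**Figure D3:**
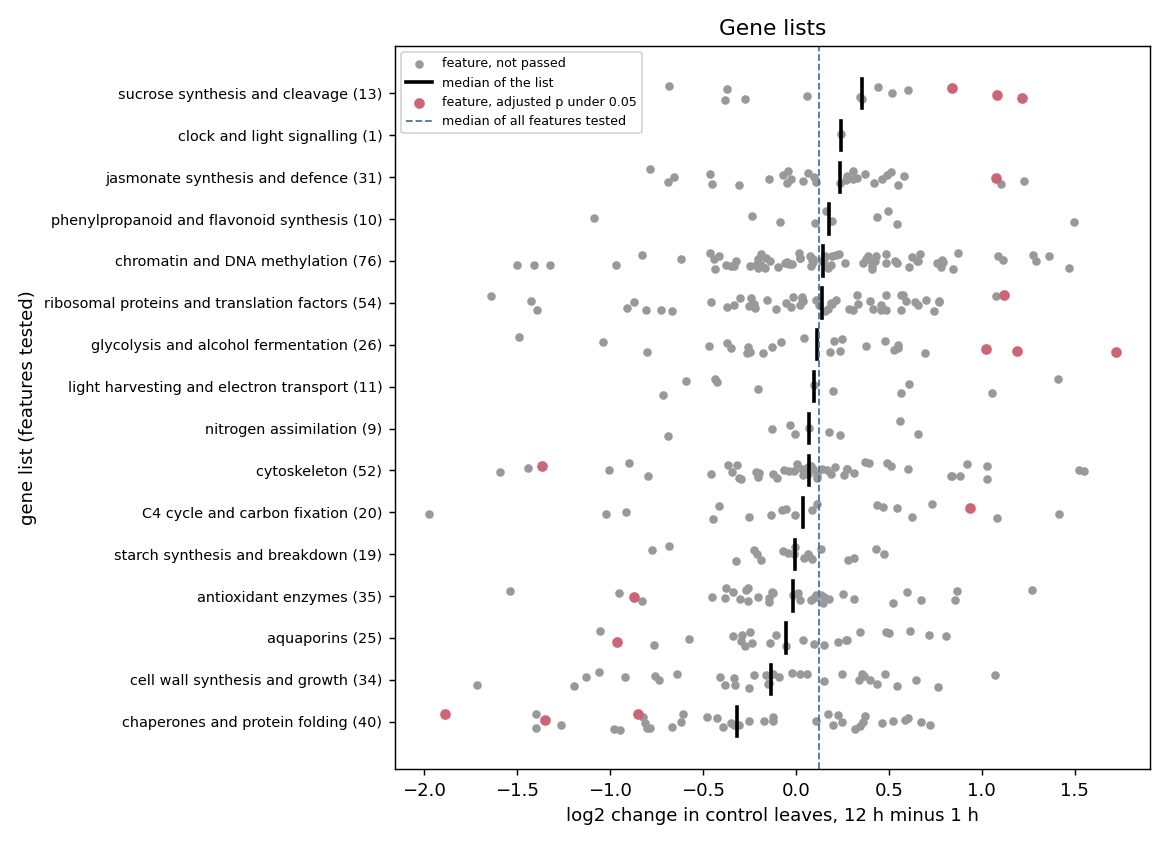
Log2 change in control leaves (x axis, 12 h minus 1 h) of every tested feature of the 16 gene lists (y axis, number of features in brackets). Red points passed at an adjusted p under 0.05, black bars are list medians and the dashed line is the median of all features, 0.13; the sucrose list has the highest median, 0.36, and the chaperone list the lowest, -0.32.

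Among the other falls were genes of water transport, the cytoskeleton and gene control. In the aquaporin list, 1 of 25 features fell and 0 rose (all features: 0.924% and 1.79%). It was PIP1-1, a plasma membrane water channel gene (AI947800), at 20.02, 19.77, 19.48 and 19.76 at 1 h and 18.73, 18.69, 18.76 and 19.01 at 12 h. All of 12 h lay below 1 h (-0.96 ± 0.22, adjusted p = 0.0298). Its other features were at -1.05 ± 0.26 (AI622338, adjusted p = 0.0519), -0.29 ± 0.24 (AI770450) and 0.50 ± 0.33 (AW433358). With the displaced blocks kept, AI622338 passed at -1.12 (adjusted p = 0.0358) and AI770450 turned to 0.35 (adjusted p = 0.737). In the cytoskeleton list, 1 of 52 fell and 0 rose (all features: 0.924% and 1.79%). The alpha-tubulin gene tua4 was at 21.92, 21.91, 21.83 and 21.75 at 1 h and, much more widely spread, at 19.59, 21.32, 20.18 and 20.87 at 12 h (AW324630, -1.36 ± 0.34, adjusted p = 0.0438, and 0.0573 with the displaced blocks kept). Its 3 further features ran from -0.45 to 0.21. Of 35 features of antioxidant enzymes, 1 fell and 0 rose (all features: 0.924% and 1.79%). The glutathione S-transferase gene GST39 was at 19.60, 19.43, 19.50 and 19.75 and then at 18.62, 18.59, 18.68 and 18.89 (AW330983, -0.87 ± 0.22, adjusted p = 0.0477, and 0.0633 with the displaced blocks kept).

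GRF13 and MYB1_2 encode transcription factors. GRF13, of the growth-regulating factor family, was at 18.90, 18.46, 19.20 and 19.30 at 1 h and at 16.91, 17.98, 17.32 and 17.85 at 12 h (AI738258). It fell by 1.45 ± 0.31 (adjusted p = 0.0281), while its second feature was at 0.36 ± 0.79. MYB1_2 (also ZmMYB31), for a repressor of lignin synthesis genes, was at 19.93, 20.17, 20.30 and 19.76 and then at 18.87, 19.02, 19.17 and 19.22 (AW400343, -0.97 ± 0.22, adjusted p = 0.0285). In neither did the groups overlap. The lignin and flavonoid list itself had 0 of 10 features past the threshold in the limma fit (2 at an unadjusted p under 0.05, both higher).

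The pathogenesis-related gene prp2 fell by 1.22 ± 0.28 (AW400376, adjusted p = 0.0319), from 19.73, 19.70, 20.10 and 19.89 to 18.26, 18.53, 18.87 and 18.88. Its symbol matches the pattern of the jasmonate synthesis and defence list, but it was left out of that list. Its fall is therefore not counted there, and the 0 falls of that list depend on this choice. The aldehyde dehydrogenase gene rf2c fell by 1.09 ± 0.28 (AW037056, adjusted p = 0.0489, and 0.0635 with the displaced blocks kept), from 17.11, 17.35, 17.59 and 16.91 to 16.50, 16.46, 15.70 and 15.93, all below the brightest foreign spot at 12 h. The gene csu503(met) was at 21.08, 20.61, 21.14 and 21.58 and then at 19.90, 19.98, 20.24 and 20.63 (BQ293691, -0.91 ± 0.20, adjusted p = 0.0281). Here replicate b of 1 h was just below replicate d of 12 h, of the other dye. Its other features were at -0.63 ± 0.46 (BQ294398), -0.61 ± 0.29 (AI691454) and -0.19 ± 0.22 (AW147014), and none passed. A feature of GF14-6, for a 14-3-3 protein (AW231464), was at 17.30, 16.21, 15.47 and 15.02 and then at 12.56, 14.32, 14.92 and 12.25 (-2.49 ± 0.63, adjusted p = 0.0477, and 0.0621 with the displaced blocks kept). That feature was dimmer than the brightest foreign spot, in all channels at 12 h. Its change was -1.41 without background correction and -0.73 with the matrix scores, so its size is not settled, and the brighter GF14-6 features stood at 0.33 ± 0.26 and 0.41 ± 0.30. Outside the naming rule, SRA fell by 1.46 ± 0.34 (adjusted p = 0.0380) and the MADS-box gene m4 by 0.78 ± 0.19 (adjusted p = 0.0391, and 0.0527 with the displaced blocks kept). The SRA feature lay in a displaced block of replicate b of 1 h, which left 3 channels of 1 h, and with that block kept its change was -1.58. All falls in this and the preceding paragraphs lost their call in 5 to 8 of the 8 fits without a channel, with adjusted p-values up to 0.170.

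Several lists had no passing member in the limma fit. Among 76 features of chromatin and DNA methylation, 0 passed (11 at an unadjusted p under 0.05) and the median was 0.15. The HMG-type gene MNB1b passed as a rise but is not in this list. In cell wall synthesis and growth 0 of 34 passed (6 unadjusted, 5 of them lower), in starch synthesis and breakdown 0 of 19 (1 unadjusted) and in nitrogen assimilation 0 of 9 (1 unadjusted). The nearest to the threshold in the last pair were sh2, for a subunit of ADP-glucose pyrophosphorylase of starch synthesis (AW244196, -0.68 ± 0.19, adjusted p = 0.0645), and NNR1, a nitrate reductase gene (0.66 ± 0.20, adjusted p = 0.0810).

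Most passing features, 463 of the 499, carried no informative gene name, and the largest measured changes were among them. Feature BE186362 was at 20.77, 20.91, 21.41 and 16.44 at 1 h and at 13.36, 16.09, 15.49 and 15.13 at 12 h, a change of -4.87 ± 0.81 (adjusted p = 0.00716). Replicate d of 1 h stood far below the other 3 but above all of 12 h. Feature AI833393 showed the same order with replicate d at 14.85 and the other 1 h channels at 19.28 to 20.48, against 12.17 to 14.81 at 12 h (-5.07 ± 1.22, adjusted p = 0.0388). All 12 h channels of both features were below the brightest foreign spot, and so was the mean level of AI833393, so the sizes of these falls are uncertain. The largest rise measured on all 8 channels with groups apart was that of AW054496 (2.74 ± 0.67, adjusted p = 0.0406), from 11.88 to 15.42 at 1 h to 16.15 to 16.97 at 12 h. That feature was dimmer than the brightest foreign spot. With features split into 3 equal groups by mean level, 4.74% of the brightest, 2.22% of the middle and 1.17% of the dimmest group passed.

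The control channels of 2, 4 and 8 h placed these changes in time. The mean level of sps1 was 20.45 at 1 h, 20.56 at 2 h, 20.59 at 4 h, 21.54 at 8 h and 21.66 at 12 h, so most of the difference lay between 4 h and 8 h. For gpi the same means were 19.96, 20.38, 20.38, 21.54 and 21.68, and for pfk1 they were 20.43, 20.28, 20.32, 21.05 and 21.61. The mean of PIP1-1 was 19.76, 19.52, 19.11, 19.01 and 18.80 and that of MYB1_2 20.04, 19.68, 19.38, 19.33 and 19.07, lower at each later time. By contrast, tua4 stood at 21.85, 21.83, 21.37, 21.90 and 20.49, so its low level was that of 12 h. These are means of 4 channels, 3 at 2 h, on different slides, and the steps between neighbouring times were not tested.

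**Figure D4:**
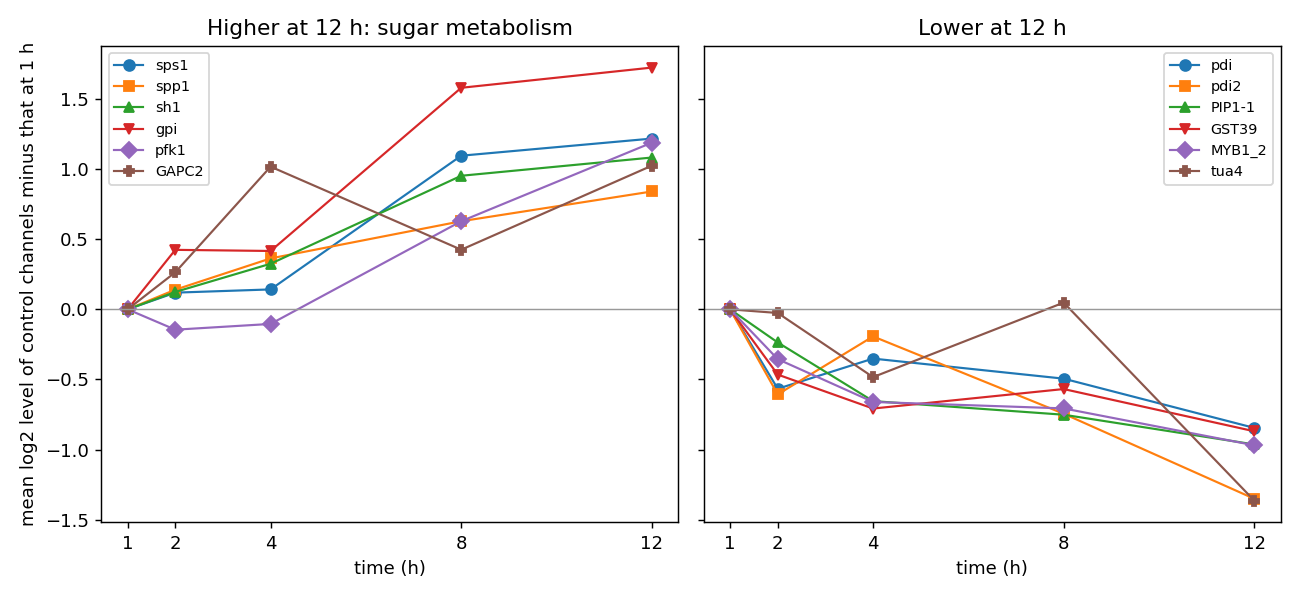
Mean log2 level of the control channels at 1, 2, 4, 8 and 12 h minus that at 1 h (y axis) against time in hours (x axis), n = 4 channels and 3 at 2 h, for 6 higher features of sugar metabolism (left) and 6 lower ones (right). No error is drawn; the line of sps1 climbs mainly between 4 h and 8 h, while that of tua4 drops between 8 h and 12 h.

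The last comparison asked whether the change over time in control leaves differed from that in the UV-B leaves of the same slides. The difference between the 12 h minus 1 h change in UV leaves and that in control leaves was tested on log2(UV/control) per slide. It passed for 37 of 18399 features (0.201%), of which 31 (0.168%) changed more positively in UV leaves and 6 (0.0326%) more negatively, while 1659 had an unadjusted p under 0.05. Of the 37, 3 were among the 499 features of the control comparison. The count was 1 when only the 8 slides of 1 h and 12 h were fitted, and 19 with the displaced blocks kept. Both values of a slide come from the same spots, so the changes in UV and control leaves share slide effects.

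For 34 of the 36 named features the difference did not pass, which does not show that the changes were alike. For rca1 the change was 1.04 ± 0.22 in UV leaves and 0.94 in control leaves (difference 0.10 ± 0.20, adjusted p = 0.943), and for PIP1-1 it was -0.95 and -0.96 (difference 0.01 ± 0.13, adjusted p = 0.990). For sps1 it was 0.53 ± 0.21 against 1.22 (difference -0.68 ± 0.21, adjusted p = 0.240), and for mha4 2.18 ± 0.18 against 1.19 (difference 0.99 ± 0.20, adjusted p = 0.0599). The difference passed for hir3, which rose by 2.15 ± 0.19 in UV leaves and 1.08 in control leaves (difference 1.07 ± 0.18, adjusted p = 0.0305). A second hir3 feature, BQ294446, gave 1.21 against 0.51 (difference 0.70 ± 0.13, adjusted p = 0.0433, and 0.0551 with the displaced blocks kept). The difference also passed for csu503(met), at 0.24 ± 0.21 against -0.91 (difference 1.15 ± 0.17, adjusted p = 0.0169). For its other features the difference was 0.84 ± 0.17 (BQ294398, adjusted p = 0.0607), 0.57 ± 0.17 (AI691454, 0.237) and 0.59 ± 0.14 (AW147014, 0.0945). None of these passed.

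The remaining pair of named features with a passing difference did not pass in control leaves alone. The RGP feature AI739985, named for a reversibly glycosylated polypeptide, stood at 0.99 ± 0.29 in UV leaves and -1.71 ± 0.48 in control leaves (difference 2.71 ± 0.42, adjusted p = 0.0244), with 3 control channels at 1 h after a displaced block was left out. With that block kept, its control change was -1.36 and the difference still passed (adjusted p = 0.0165). A chitinase feature, BE056094, stood at 2.52 ± 0.31 against -0.65 ± 0.42 (difference 3.18 ± 0.60, adjusted p = 0.0460, and 0.0551 with the displaced blocks kept). Both were named after their values were seen.

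**Figure D5:**
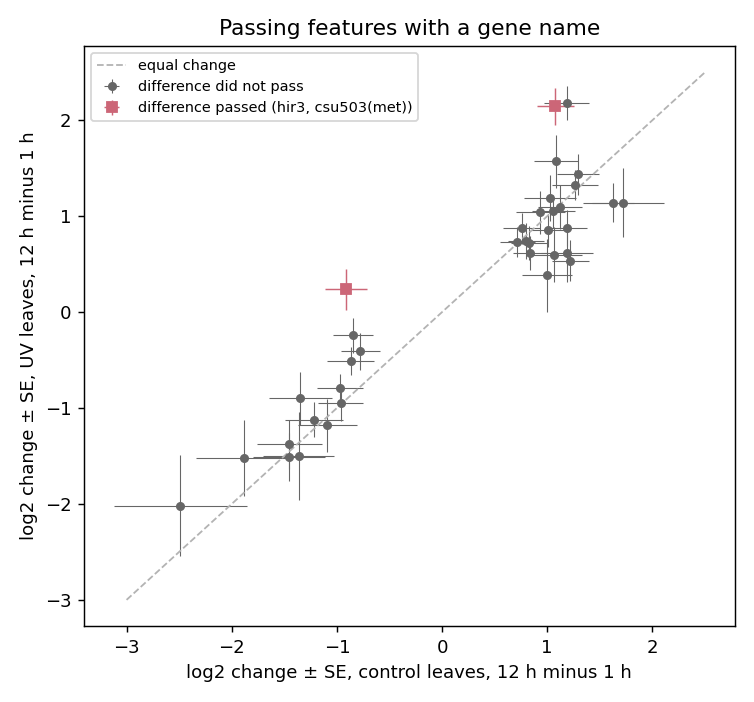
Log2 change ± SE in UV leaves (y axis) against that in control leaves (x axis), both 12 h minus 1 h, for the 36 passing features with a gene name. The dashed line marks equal change, and the red squares, hir3 at 1.08 and 2.15 and csu503(met) at -0.91 and 0.24, are the features whose difference passed.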

How the data were processed

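The authors deposited 1 file per sample with a linear intensity per spot, and per the labels the scans were gridded with TIGR Spotfinder. Whether background was subtracted is unknown. The authors' series matrix holds a score per sample whose scale and centring are unknown (column medians 12.27 to 12.31 over the control columns of 1 h and 12 h, r of 0.743 to 0.785 with log2 intensity), so it was used only as an alternative. Intensities were corrected by normexp (offset 50), normalized by loess within slides (span 0.3) and by Aquantile between slides in limma 3.58.1 (R 4.3.3), with 120 special spots left out. The 19 control channels were fitted with a mean per time and a dye term (13 residual and 2.50 prior degrees of freedom), and p-values were adjusted by Benjamini-Hochberg over all features measured on at least 3 channels at 1 h and at 12 h. An SE thus rests on the spread at all 5 times. Spots of displaced blocks were found without group labels, by a gain in r above 0.1 at an offset of up to 7 spots, and set to missing. The planned design did not include this. The fit to the values as deposited (342 calls) had been seen before, and is given as an alternative. The displacement affects 3738 features at 1 h or 12 h, of which 1515 were not tested.

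Gene names came from the array platform's table (1331 probes with 1 symbol, 3 with several, 1283 with a gene in the RefSeq table of Zm-B73-REFERENCE-NAM-5.0). Named are the 12 largest rises and 12 largest falls among passing features measured on all 8 channels and separated within each dye, 1 per symbol, the 2 passing members of each list with the largest change and all clock and light features. The samples, lists and rule were chosen with earlier results of these data known. Genes of another function that a list's pattern matched were removed from it. The pathogenesis-related gene prp2, which the pattern of the jasmonate synthesis and defence list matched, was also left out. Replicate letters are not said to pair slides of different times, and the main fit held no block for them. Deviations of the same letter at 1 h and 12 h correlated at -0.047 to 0.044 from the group means and at -0.081 to 0.119 after time and dye were removed. Low correlations do not show that the letters are unpaired. The number of arrays limits the precision. The fit was tested on simulated data. Promoter motifs were planned but not analysed here, and no sequence was used.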

Additional observations from a re-analysis of the deposited data

Results flagged for a closer look

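For 2 named features the change from 1 h to 12 h differed between UV and control leaves by a test of the difference itself. The difference of hir3 (BQ134598) was 1.07, with changes of 2.15 in UV leaves and 1.08 in control leaves (limma adjusted p = 0.0305). That of csu503(met) (BQ293691) was 1.15, with 0.24 in UV leaves and -0.91 in control leaves (adjusted p = 0.0169). With the 8 slides of 1 h and 12 h alone, only 1 feature of all those tested passed for this difference. The calls of hir3 and csu503(met) thus did not both hold there. Among 73 groups of 4 channels of the 37 features given by name, 0 held a channel far from the other 3 by Dixon's criterion. The criterion flags about 1 in 20 groups by chance. Since 36 of these features were chosen for passing, which selects against such groups, the count cannot be set against that rate. Features without a gene name were not checked, among them BE186362 with its low replicate d of 1 h.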

How the results depend on the processing

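None of the 36 passing named features, nor nph1, changed direction in any alternative run, and their calls depended on the setting more than their signs. The 36 were chosen for passing, which favours stable signs. Outside these, a PIP1-1 and a crt2 feature given above changed direction with the displaced blocks kept. Of the 499 calls of the control comparison, the count rose to 769 in the separate-channel fit (11757 complete features), to 792 among features above the brightest foreign spot and to 2202 with array weights, and it fell to 25 with the Cy3 channels alone and 7 with the Cy5 channels alone. Leaving out 1 channel gave 127 to 379. The counts of the other alternatives stayed within 1.5 times, from 336 (median centring) to 743 (the 8 channels alone), with 342 when the displaced blocks were kept, an alternative added after the data were seen. A similar count did not mean the same features. Of the 499, 329 passed with the 8 channels alone and 284 with the matrix scores. The replicate block gave 343 calls, 331 of them shared with the 499, although the letters are not said to pair slides. Matrix scores moved the median of all features from 0.13 to -0.0089. Their changes, on an unknown scale, were smaller by over 1.5 times for 25 of the 37 features given by name. The 37 calls of the difference between UV and control leaves became 107 without background correction, 14 with median centring of each slide, 14 with the replicate block, 1 with the 8 slides alone, 19 with the displaced blocks kept, and 4 to 24 with 1 slide left out. The causes were not tested. Of the 36 named calls and nph1, 37 kept their side of the threshold with array weights and without background correction, 22 with median centring, 27 with the matrix scores and 24 with the replicate block.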
